A study of Mus musculus with 384 samples.

Results

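Igfbp1 RNA in the liver was used to pick out mice at the ends of its natural range. Within each of 4 groups, defined by diet and by the letter F or M in the mouse's name, which matched the sex label, mice were ranked by Igfbp1 and cut into 4 sets of near equal size. The 47 mice of the pooled top sets (the high Igfbp1 set) were compared with the 47 mice of the pooled bottom sets (the low Igfbp1 set), of 192 mice in all. The remaining 98 mice formed an upper and a lower middle set of 49 each. Per the labels, all mice were wild-type Diversity Outbred animals, an outbred stock bred from several inbred founder strains, aged 26 weeks at liver collection. Since weaning the food had been standard chow, with 6% of its weight as fat, or a high fat diet, with 22%, and the groups held 50 F chow, 48 F high fat, 48 M chow and 46 M high fat mice. The high and low sets each took 12, 12, 12 and 11 of these, in that order. A generation label, G11L1 or G11L2, split the high set 30 to 17 and the low set 21 to 26. It was a covariate, together with the group, in every limma fit that held both generations, except the alternative that left it out. Food was freely available per the labels, and neither removal of food before collection nor the hour of collection was given in the sources used here.

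Igfbp1 encodes a secreted protein that binds insulin-like growth factors, and hepatocytes are its main source. Insulin represses it: when insulin is low, the transcription factor FOXO1 enters the nucleus and drives Igfbp1 together with G6pc, Pck1 and Irs2, while glucagon (through cAMP) and glucocorticoids act on several of the same genes. Fasting liver is also known for PPARα-driven fatty acid oxidation and ketone synthesis and for low SREBP-1c-driven lipid synthesis, so a fasting-like state can be read on gene groups other than Igfbp1 itself.

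Igfbp1 (ENSMUSG00000020429) lies on chromosome 11, 7197782 to 7202546, plus strand (GRCm38, GENCODE M21). The sequences around the start sites of Igfbp1 and of its best known companions are shown because the comparison turns on whether these genes moved together. Each window runs from 250 bases before to 50 bases after the start in RefSeq (GRCm38.p6). Capitals mark TGTTTTG, the core of the insulin response element, or its reverse complement CAAAACA, and in Pck1 they mark ACGTCA, part of the cAMP response element. In order, the windows are chr11:7197537-7197836 (plus strand), chr11:101367466-101367765 (plus), chr8:11008880-11009179 (minus) and chr2:173152823-173153122 (plus).
Igfbp1: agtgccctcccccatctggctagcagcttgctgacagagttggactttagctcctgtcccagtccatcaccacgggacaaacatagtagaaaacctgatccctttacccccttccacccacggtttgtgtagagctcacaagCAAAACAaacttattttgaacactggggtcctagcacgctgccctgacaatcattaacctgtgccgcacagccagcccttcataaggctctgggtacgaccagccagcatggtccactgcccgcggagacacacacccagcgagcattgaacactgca
G6pc: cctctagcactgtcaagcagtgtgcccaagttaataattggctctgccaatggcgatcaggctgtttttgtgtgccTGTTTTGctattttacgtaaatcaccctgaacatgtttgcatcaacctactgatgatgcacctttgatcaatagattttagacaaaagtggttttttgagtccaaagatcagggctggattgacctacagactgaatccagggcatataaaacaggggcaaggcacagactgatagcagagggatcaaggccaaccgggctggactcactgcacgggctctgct
Irs2: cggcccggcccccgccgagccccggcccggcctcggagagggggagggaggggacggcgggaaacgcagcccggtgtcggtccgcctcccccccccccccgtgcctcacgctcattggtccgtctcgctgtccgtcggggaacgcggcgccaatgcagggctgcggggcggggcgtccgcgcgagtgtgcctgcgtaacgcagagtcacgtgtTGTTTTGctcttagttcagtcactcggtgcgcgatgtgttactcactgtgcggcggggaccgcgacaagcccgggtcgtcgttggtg
Pck1: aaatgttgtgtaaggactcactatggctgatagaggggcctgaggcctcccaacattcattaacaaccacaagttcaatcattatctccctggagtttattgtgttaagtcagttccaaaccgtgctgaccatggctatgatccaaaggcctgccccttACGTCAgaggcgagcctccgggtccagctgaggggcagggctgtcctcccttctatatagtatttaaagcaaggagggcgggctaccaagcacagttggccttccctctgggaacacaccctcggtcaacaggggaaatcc
The letters TGTTTTG, sought on both strands, were present in the Igfbp1, G6pc and Irs2 windows and in 6.28% of all 32851 windows. ACGTCA or its reverse complement TGACGT was in 7.51%, and the related FOXO motif TGTTTAC or GTAAACA was in 3.65% and in none of the 4 windows shown. TGTTTTG and TGTTTAC share their first 5 letters and cannot match at the same place. Such a match describes the letters only.

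Liver RNA was read as single-end reads of 100 bases, and the deposited values are a signal scaled to the upper quartile of each mouse. The value of 1 read in that signal gave an estimated 9780000 to 17900000 reads per mouse (median 14200000). The high set had 14600000 and the low set 14100000 reads on average, and none of 9 hepatocyte markers was at 0 in any mouse of either set. In whole liver, fewer cells of a type and less RNA per cell cannot be told apart.

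The Igfbp1 signal chose the members, so its values are a description with no test. It ran from 0.211 to 3.12 (median 1.07) in the low set and from 2.79 to 42.0 (median 7.28) in the high set. Because ranking was within groups the ranges met, and 43 of the 47 high mice lay above every low mouse. F chow mice had the highest group median, 4.95, against 2.97 in F high fat, 1.71 in M chow and 2.14 in M high fat mice. At the lower edge, the highest low mouse and the next mouse had 3.12 and 3.41 in F chow, 1.91 and 1.97 in F high fat, 0.987 and 1.00 in M chow, and 1.07 and 1.11 in M high fat. At the upper edge, the mouse just outside and the lowest high mouse had 8.25 and 8.46 in F chow, 4.95 and 5.25 in F high fat, 2.66 and 2.79 in M chow, and 2.83 and 2.88 in M high fat. The sets are therefore sections of a continuous range with no gap at their edges.

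**Figure D1:**
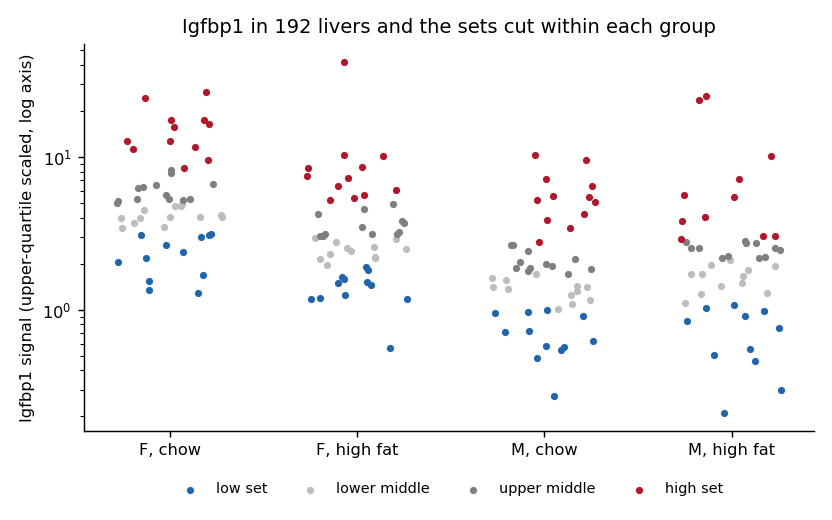
Igfbp1 signal of each mouse (log axis) in the 4 groups of sex letter and diet, coloured by set within the group. The sets adjoin without a gap, and the F chow mice have the highest median, 4.95.

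Of 14693 other genes tested, 310 (2.11%) differed between the high and low sets by limma at an adjusted p (Benjamini-Hochberg) under 0.05: 157 (1.07%) were higher and 153 (1.04%) lower in the high set. Rescaling the mice by median-of-ratios factors moved that split to 209 higher and 130 lower, that is, from 50.6% to 61.7% higher. Differences are given as log2 of signal plus 0.06, high minus low, with the standard error, so they understate the change of low genes. They were small, with a median size of 0.30 and a range of 0.09 to 1.64, and 34 genes reached 1.5-fold, 27 of them higher. The median over all genes tested was -0.02. Within the generation labels, G11L1 mice alone gave 1 call (0.00681%, with 1186 genes at an unadjusted p under 0.05 by limma) and G11L2 mice alone 85 (0.579%). Agouti mice alone had 26 genes called higher (0.177%). The members were chosen on an RNA measured in the same libraries, so each p-value describes an association within these 94 mice.

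The gene with the smallest p of the whole table was Irf2bp2, which encodes a zinc finger transcriptional corepressor (chromosome 8, 126588296 to 126593986, minus strand). Its signal ran from 3.11 to 9.37 (median 5.39) in the low set and from 5.36 to 16.6 (median 8.56) in the high set. The ranges overlapped, but 46 of 47 high mice lay above the low median of their own group and 21 lay above every low mouse. The mean was 5.42 ± 1.28 (SD, n = 47) against 8.90 ± 2.68 (SD, n = 47), 1.64-fold on the fitted scale (log2 0.72 ± 0.077, limma adjusted p 1.06e-10). The difference was 0.74 in F and 0.71 in M mice. In the middle of the range it was smaller: the upper minus the lower middle set gave 0.35 ± 0.079, with an unadjusted p of 2.92e-05 and an adjusted p of 0.214. The call held in 27 of 28 alternatives.

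The insulin-repressed genes, the closest relatives of Igfbp1 in regulation, moved only in part. Of 18 such genes, 4 were higher, none was lower, and the median difference was 0.18 (12 positive and 6 negative), beside 1.07% of all genes called higher. The list also holds Angptl8, which insulin and feeding induce, so a negative sign there has the opposite sense from the other members. Those 4 were Foxo1, Slc38a2, Irs2 and Pck1. G6pc, which is also held to mark the state, did not pass the test.

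Foxo1, the transcription factor that insulin holds out of the nucleus, had a mean of 8.27 ± 1.63 (SD, n = 47) in the low and 10.2 ± 2.77 (SD, n = 47) in the high set (log2 0.28 ± 0.066, limma adjusted p 0.0123). Slc38a2, a neutral amino acid transporter, went from a mean of 22.7 to 30.7 (log2 0.39 ± 0.096, limma adjusted p 0.0166). Irs2, the insulin receptor substrate that carries much of the hepatic insulin signal, ran from 0.258 to 5.10 (median 1.77) in the low and from 0.454 to 6.89 (median 2.46) in the high set. The 3 genes overlapped widely between sets. For Irs2 the mean was 1.97 ± 0.948 (SD, n = 47) against 2.70 ± 1.504 (SD, n = 47), a log2 difference of 0.42 ± 0.12 (limma adjusted p 0.0409). By group, Irs2 differed by 0.75 in F chow, 0.44 in F high fat, 0.53 in M chow and -0.03 in M high fat mice.

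Pck1, the cytosolic phosphoenolpyruvate carboxykinase and a control point of gluconeogenesis (chromosome 2, 173153048 to 173159273, plus strand), ran from 93.8 to 551 (median 275) in the low and from 86.7 to 805 (median 371) in the high set. The sets overlapped over most of that range. Its mean was 266 ± 104 (SD, n = 47) against 385.4 ± 181 (SD, n = 47), 1.40-fold on the fitted scale (log2 0.49 ± 0.14, limma adjusted p 0.0480). The group differences were 1.02 in F chow, 0.88 in F high fat, 0.20 in M chow and -0.16 in M high fat mice, and 23 of 24 F but 12 of 23 M high mice lay above their group's low median. The call sat at the threshold. It held in 15 of 28 alternatives, as did that of Irs2, and its limma adjusted p ran from 0.0525 to 0.069 in 6 that used most of the mice, among them leaving out the 3 mice highest in Igfbp1. Without those 3 mice, 2 of the 18 insulin-repressed genes were called.

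G6pc, the catalytic subunit of glucose-6-phosphatase that releases free glucose, ran from 9.90 to 162 (median 55.3) in the low and from 9.11 to 215 (median 73.2) in the high set, so the sets overlapped almost fully. Its mean was 61.8 ± 33.3 (SD, n = 47) against 88.0 ± 49.8 (SD, n = 47), a log2 difference of 0.42 ± 0.18 (limma p 0.0216, adjusted p 0.189). The sign differed among groups. The median went from 51.7 to 140 in F chow and from 40.3 to 68.0 in F high fat mice. In M chow it was 69.2 in both sets, and in M high fat it went from 74.9 to 43.2. The log2 differences were 1.18 ± 0.22, 0.98 ± 0.30, 0.19 ± 0.41 and -0.67 ± 0.32 in the same order. The difference between M and F mice in this contrast was -1.27 ± 0.33 for G6pc (unadjusted p 0.000273, limma adjusted p 0.143) and -0.92 ± 0.27 for Pck1 (unadjusted p 0.000916, limma adjusted p 0.178), and neither passed the adjusted threshold.

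**Figure D2:**
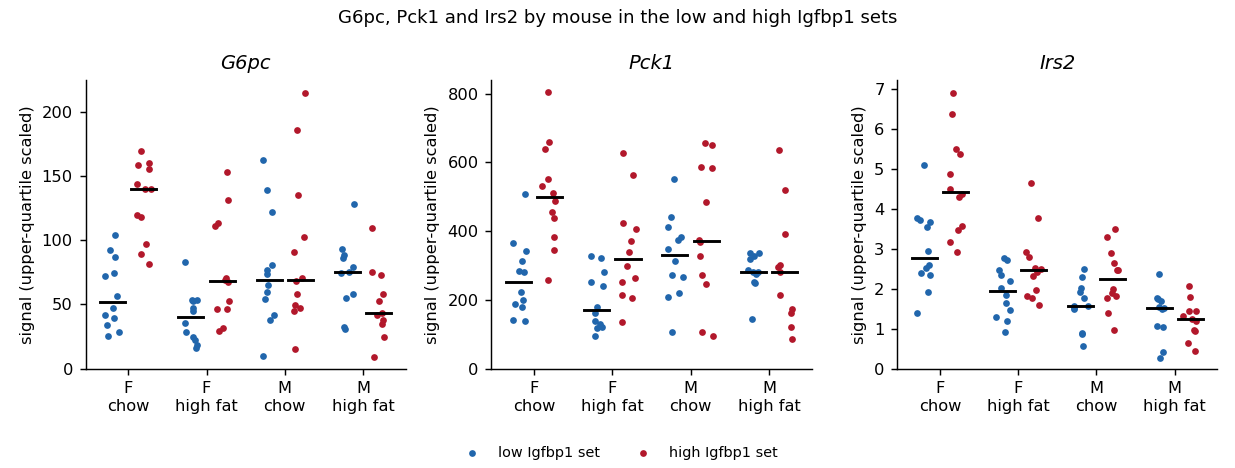
G6pc, Pck1 and Irs2 signal of each mouse in the low and high Igfbp1 sets of the 4 groups, with the median as a black line. G6pc medians go from 51.7 to 140 in F chow mice and from 74.9 to 43.2 in M high fat mice.

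In F mice fitted alone, 6 of the 18 insulin-repressed genes were higher: Pck1 (log2 0.96, limma adjusted p 0.00123), G6pc (1.09 ± 0.20, 0.00196), Slc38a2 (0.60, 0.00329), Foxo1 (0.42, 0.0118), Irs2 (0.58, 0.0200) and Klf15 (0.36, 0.0405), a glucocorticoid-responsive factor of amino acid breakdown. In M mice fitted alone none of the 18 was called, by limma. Over all genes the F fit called 70 (0.476%) and the M fit 6 (0.0408%). At an unadjusted p under 0.05 by limma they had 1662 and 2249 genes, so the call counts do not show a weaker difference in M mice. Whether these lists differ between the sexes was not tested as such, and the difference for single genes is given above.

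The other insulin-repressed members did not pass in the pooled comparison. Positive differences were 0.31 for Igfbp2, another binding protein, 0.30 for Pdk4, which holds back glucose oxidation, 0.19 for Txnip, an inhibitor of glucose uptake, 0.19 for Ccng2, a cyclin driven by FOXO factors, 0.17 for Ppargc1a, the coactivator of gluconeogenesis, 0.15 for Klf15 and 0.09 for Trib1, a pseudokinase. Values were below 0 for Angptl8 (-0.42, limma adjusted p 0.119), the secreted feeding-induced protein, Sesn3 (-0.18), Cited2 (-0.10), the insulin receptor Insr (-0.08), Sesn1 (-0.06) and Foxo3 (-0.01). The median of these 18 genes was 0.21 in the F and 0.03 in the M fit.

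Gluconeogenesis as a whole gave 1 gene of 21 higher, which was Pck1, and a median of 0.01. Insulin signalling gave 3 of 25 higher: Foxo1, Irs2 and Ptpn1 (log2 0.13, limma adjusted p 0.0243), the phosphatase that acts on the insulin receptor. Foxo1 and Irs2 are also counted among the insulin-repressed genes. That list had a median of -0.02, with 7 positive and 18 negative signs, so it did not rise as a whole. Over all genes 1.07% were called higher. No glycolysis gene of 19 was called, beside 2.11% of all genes called either way.

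The fatty acid oxidation and ketone genes of fasting gave no call. Of 38 PPARα target and ketone synthesis genes none was called and the median was -0.05, beside 2.11% of all genes. This list does not hold Angptl4, which was counted with the fasting hormones and secreted factors and was called higher (values below). Cpt1a, the gate of fatty acids into mitochondria, had a difference of 0.07 (limma adjusted p 0.553). No call among 38 genes is close to that share, and their median lay near that of all genes (-0.02). G6pc was called in F mice fitted alone but not in the pooled comparison. The name of a fasting-like state thus fitted the measured RNA only in part, and the mice are called by their Igfbp1 set throughout.

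Of 24 genes of fatty acid synthesis and SREBP-1, 3 were lower and none was higher, beside 1.04% of all genes lower. Of these 24, 19 had a negative sign, and the median was -0.16. The median was 0.03, with no call, when only the 34 mice farthest out were compared. It was -0.01 in G11L1 mice, with no call, and -0.34 in G11L2 mice, with 2. Over all genes the G11L1 fit called 0.00681% and the G11L2 fit 0.579%. Srebf1, which encodes the insulin-induced regulator SREBP-1, ran from 41.9 to 168 (median 88.2) in the low and from 32.4 to 154 (median 72.3) in the high set. These ranges overlapped almost fully, and the means were 95.1 ± 26.7 (SD, n = 47) and 75.8 ± 25.7 (SD, n = 47), a log2 difference of -0.34 ± 0.084 (limma adjusted p 0.0171). The others were Mid1ip1, an activator of acetyl-CoA carboxylase (-0.34, limma adjusted p 0.0381), and Aacs, which makes acetoacetyl-CoA in the cytosol (-0.53, limma adjusted p 0.0423). The enzyme genes Fasn (-0.31), Scd1 (-0.30), Gpam (-0.27) and Acaca (-0.10) did not pass. Of 26 cholesterol synthesis genes none was called (median -0.09), beside 2.11% of all genes. A separate list of 23 lipid droplet and triglyceride genes had 1 higher, beside 1.07% of all genes, none lower and a median of -0.01.

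The largest share of any list was in the immediate early genes, transcription factors and feedback regulators that cells switch on within minutes of a stimulus. Of 24, 12 were higher and none was lower, all 24 had a positive sign and the median was 0.37, beside 1.07% of all genes called higher and a median of -0.02. Fos, a subunit of the AP-1 factor, ran from 0.0172 to 0.525 (median 0.177) in the low and from 0.0624 to 6.43 (median 0.333) in the high set. The ranges overlapped, and 43 of 47 high mice exceeded their group's low median (log2 0.87 ± 0.16, limma adjusted p 0.000290). Gadd45b, a stress sensor, rose with it from a mean of 0.173 to 0.434 (0.95 ± 0.16, limma adjusted p 9.26e-05), above the low median of the group in 44 of 47 high mice. Dusp1, the phosphatase that ends MAP kinase signals, had means of 3.88 and 6.37 (0.63 ± 0.13, limma adjusted p 0.00407).

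Other called members were Klf2 (log2 0.55), Klf4 (0.51), Jun (0.50), Maff (0.50), Btg2 (0.48), Zfp36 (0.39), which destabilises inflammatory mRNAs, Rhob (0.34) and Klf6 (0.31), with limma adjusted p from 0.000290 to 0.0405. Egr1, a zinc finger factor of the same class, ran from 0.140 to 19.5 (median 0.709) in the low and from 0.623 to 111 (median 1.51) in the high set, so a few mice of each set reached many times the median. Its difference was 1.08 ± 0.29 (limma adjusted p 0.0299), made up of 0.17 ± 0.31 in F and 2.03 ± 0.44 in M mice, and the difference between the sexes was 1.92 (unadjusted p 0.00052, limma adjusted p 0.161). Junb (0.39, limma adjusted p 0.0674) and Atf3 (0.29) did not pass. The list had 11 calls without the 3 mice highest in Igfbp1, 4 in F mice alone and none in M mice alone, 2 in chow and 1 in high fat mice alone, and none in G11L1 and 2 in G11L2 mice alone. Its median was 0.25 in F and 0.41 in M mice, and 0.32 in chow and 0.47 in high fat mice. In both pairs the fit with fewer calls had the larger median. The M fit called 0.0408% of all genes, the high fat fit 0.0272% and the G11L1 fit 0.00681%. The F, chow and G11L2 fits called 0.476%, 0.32% and 0.579% of all genes.

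Glucocorticoid-responsive genes were also called in number: 8 of 26 higher, 1 lower, 24 positive, median 0.37, beside 1.07% of all genes higher and 1.04% lower. Fitted alone, F mice had 6 of the 26 higher, chow mice 3 and G11L2 mice 3, and M, high fat and G11L1 mice had none. Those first 3 fits called 0.476%, 0.32% and 0.579% of all genes. The M, high fat and G11L1 fits called 0.0408%, 0.0272% and 0.00681%, and the list's median was 0.24, 0.35 and 0.30 in them. Nfkbia, the inhibitor of NF-κB, ran from 3.65 to 7.40 (median 5.17) in the low and from 3.99 to 10.3 (median 6.78) in the high set, with much overlap (log2 0.35 ± 0.057, limma adjusted p 9.26e-05). Tsc22d3 (GILZ), a classic glucocorticoid target, went from a mean of 16.8 to 25.1 (0.58 ± 0.13, limma adjusted p 0.0102), with 0.97 in F and 0.19 in M mice. Ddit4, an inhibitor of mTORC1, went from 0.983 to 1.70 (0.67 ± 0.15, limma adjusted p 0.00869), and Zbtb16, a zinc finger factor, differed by 0.84 ± 0.23 (limma adjusted p 0.0331). The gene that fell was Nr3c1, which encodes the glucocorticoid receptor (-0.16 ± 0.041, limma adjusted p 0.0269). Fkbp5, the receptor's co-chaperone (0.46 ± 0.16, limma adjusted p 0.0996), Tat (0.30, 0.198), an amino acid enzyme, and the clock gene Per1 (0.46, 0.217) did not pass.

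The metallothioneins, small metal-binding proteins on the same list, had the largest differences of all. Mt2 (chromosome 8, 94172664 to 94173568, plus strand) ran from 0.240 to 64.2 (median 6.10) in the low and from 0.274 to 194 (median 19.4) in the high set. Both sets spanned more than 2 orders of magnitude, and 36 of 47 high mice lay above their group's low median. The difference was 1.64 ± 0.37, or 3.11-fold (limma adjusted p 0.00914), with 0.68 in F and 2.43 in M mice. Its neighbour Mt1, which begins at 94179082 on the same strand, differed by 1.37 ± 0.35, or 2.59-fold (limma adjusted p 0.0201). The paralogs are close in sequence, and how reads shared between them were counted was not given in the sources used here.

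**Figure D3:**
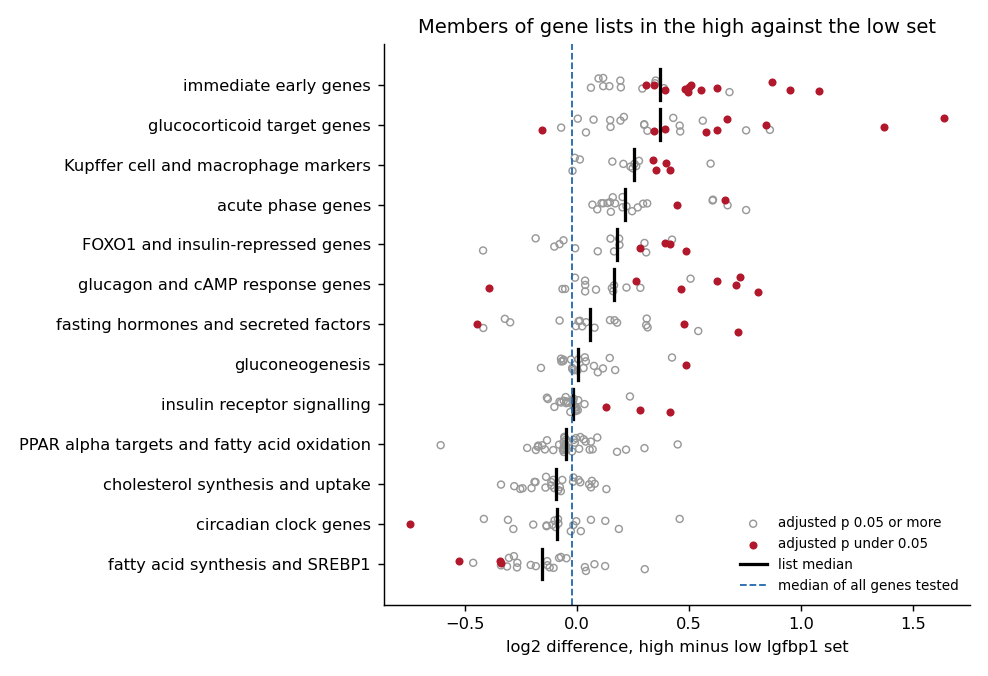
Log2 difference of signal plus 0.06, high minus low Igfbp1 set, for each member of 13 gene lists. Filled points passed an adjusted p of 0.05, the black bar is the list's median and the dashed line the median of all genes; the immediate early and glucocorticoid lists have medians of 0.37, and the PPARα list -0.05.

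Genes that answer cAMP, the messenger of glucagon, gave 6 of 20 higher and 1 lower, with a median of 0.16, beside 1.07% of all genes higher and 1.04% lower. Fitted alone, F mice had 5 of the 20 higher, chow mice 1 and G11L2 mice 2, and M, high fat and G11L1 mice had none. The M fit called 0.0408% of all genes, the high fat fit 0.0272% and the G11L1 fit 0.00681%. The list's median was 0.10, 0.16 and 0.16 in these. The F, chow and G11L2 fits called 0.476%, 0.32% and 0.579% of all genes. The C/EBP factors led them. Cebpd ran from 0.125 to 1.13 (median 0.520) in the low and from 0.239 to 3.41 (median 0.783) in the high set, and Cebpb, which binds many liver promoters, from 1.88 to 10.4 (median 5.74) and from 2.11 to 29.1 (median 8.16). The ranges overlapped, with 40 and 37 of 47 high mice above their group's low median. Cebpd had means of 0.518 ± 0.267 and 0.920 ± 0.526 (SD, n = 47 each), 1.75-fold on the fitted scale (0.81 ± 0.14, limma adjusted p 0.000124), and Cebpb had 5.60 ± 2.37 and 9.28 ± 5.52 (0.73 ± 0.14, limma adjusted p 0.00118). Lpin1, a phosphatidate phosphatase and nuclear coactivator, went from 16.7 to 32.4 (0.71 ± 0.20, limma adjusted p 0.0388), with 1.14 in F and 0.27 in M mice. Pim3 (0.46) and Fosl2 (0.26) were higher and Pde4b, which breaks down cAMP, was lower (-0.39). Nr4a1 did not pass (0.51, limma adjusted p 0.0817).

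Of 20 secreted liver proteins, 2 were higher and 1 lower, beside 1.07% of all genes higher and 1.04% lower. Angptl4, an inhibitor of lipoprotein lipase, ran from 7.96 to 41.1 (median 21.9) in the low and from 12.8 to 59.7 (median 27.0) in the high set. The ranges overlapped, and the means were 21.4 ± 6.68 and 29.1 ± 9.46 (SD, n = 47 each; 0.48 ± 0.089, limma adjusted p 0.000518). The activin antagonist Fst was higher (0.72, limma adjusted p 0.0363) and Igfbp5, another growth factor binding protein, was lower (-0.45, limma adjusted p 0.0402). The fasting hormone Fgf21 did not pass (0.54, limma adjusted p 0.155). Of 20 genes of the growth hormone and IGF axis none was called, beside 2.11% of all genes. Igfbp3, which lies beside Igfbp1 on chromosome 11, had a difference of -0.30 ± 0.16 (limma adjusted p 0.324). Within 5 Mb of Igfbp1, 4 of 83 genes tested were called (4.82%), beside 2.11% of all genes.

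Of 26 genes of the integrated stress response, 2 were higher. They were Ddit4, also counted among the glucocorticoid-responsive genes, and Ppp1r15a (0.19, limma adjusted p 0.0175), a regulatory subunit of the eIF2α phosphatase. Of 18 unfolded protein genes only Herpud1 was called (0.40, limma adjusted p 0.0136). Over all genes 1.07% were called higher. Of 20 circadian clock genes, only Bhlhe41, a repressor within the clock, was called, and it was lower: its mean was 1.37 against 0.787 (-0.74 ± 0.19, limma adjusted p 0.0249). Over all genes 1.04% were called lower. Nr1d1 (-0.28, limma adjusted p 0.0572) and Dbp (-0.42, 0.212), which swing widely over the day, did not pass. The first component of the clock genes did not pass between sets (permutation test, 100000 resamples within groups, adjusted p 0.233).

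Among the genes with the largest falls was Hamp2, a copy of the iron hormone gene hepcidin. It ran from 4.33 to 652 (median 153) in the low and from 3.18 to 407.5 (median 58.5) in the high set. The sets overlapped widely, and the difference was -1.15 ± 0.33 (limma adjusted p 0.0409), with -0.29 in F and -2.11 in M mice. Hamp itself had -0.42 (limma adjusted p 0.158), and how reads common to both copies were counted was not given. Cyp26b1, which degrades retinoic acid, ran from 0.438 to 9.60 (median 2.11) and from 0.098 to 5.73 (median 1.22), again with overlap (-0.95 ± 0.22, limma adjusted p 0.0102). Others were Sucnr1, the succinate receptor (-0.65, limma adjusted p 0.0183), Nudt7, which cleaves coenzyme A in peroxisomes (-0.64, 0.00123), and Aox3, an aldehyde oxidase (-0.47, 0.0337). Among 15 stellate cell markers, Lrat, which stores retinol as its ester (-0.42, limma adjusted p 0.0169), and Reln (-0.44, 0.0398) were lower, beside 1.04% of all genes. The other 13 were not called, and the list had 5 positive and 10 negative signs and a median of -0.07. Olfr701, an olfactory receptor of a large gene family, had -1.19 (limma adjusted p 0.0453) and was listed at 0 in 10 high and 3 low mice.

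Other large increases were in Nipal1, a magnesium transporter (0.89, limma adjusted p 0.0363), Tcim (0.80, 0.00111), Ccn2, the matrix protein CTGF (0.76, 0.000518), Fgl1, a secreted hepatocyte protein (0.70, 0.0363), and Arl4d, a small GTPase (0.67, 0.000884).

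The Kupffer cell and neutrophil marker sums differed between the sets, by tests that held the group but not the generation fixed. Of 15 Kupffer cell and macrophage markers, 4 were called higher (C1qa, C1qb, C1qc and Laptm5, 0.34 to 0.42), beside 1.07% of all genes, and the median was 0.26. Their summed signal was 156 in the high and 131 in the low set on average (ranges 55.9 to 264 and 80.9 to 283; permutation test within groups, adjusted p 0.0321 over 17 measures), and of them only Marco was at 0, in 1 high mouse. None of the 15 was called in F mice or in M mice alone, fits that called 0.476% and 0.0408% of all genes. The 10 neutrophil markers summed to 1.86 against 1.33 (0.550 to 5.59 and 0.402 to 3.51; adjusted p 0.0321 in the same family). None of the 7 tested singly was called, and Ly6g, which defines the cell, was at 0 in 28 high and 30 low mice. These sums stand beside the immediate early, C/EBP and acute phase results above all, since white cells also express Fos, Cebpb, Cebpd and Nfkbia, and their part in the result was not tested. Hepatocyte markers summed to 27776 against 24407 (adjusted p 0.0501) with none of 9 called. Pancreas markers summed to 7.44 against 34.0 (adjusted p 0.162), and none of 12 tested was called. The sums for red cells, stellate cells, fat, muscle, bile duct, lymphocytes and endothelium did not pass either, with adjusted p from 0.198 to 0.707.

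All 310 called genes had the same sign in F and M mice fitted apart and 291 in all 4 groups, which a comparison pooled over both sexes favours by its making. A test of the difference itself over all genes called 2 (0.0136%) between the sexes, with 1419 at an unadjusted p under 0.05, and none between the diets (limma; 0.0% called, 1094 unadjusted) or the generations (limma; 0.0%, 858 unadjusted). Those 2 were Creb1, the cAMP-responsive transcription factor, and Prdm15, a zinc finger regulator. Creb1 went from a mean of 4.10 ± 0.524 to 4.58 ± 0.614 (SD, n = 24 each) in F and from 4.89 ± 0.668 to 4.28 ± 0.614 (SD, n = 23 each) in M mice. Prdm15 went from 1.04 ± 0.194 to 1.32 ± 0.181 in F and from 1.52 ± 0.264 to 1.31 ± 0.332 in M mice (SD, same n). Chow mice alone gave 47 calls (0.32%) and high fat mice alone 4 (0.0272%), with similar numbers of mice. At an unadjusted p under 0.05 by limma they had 1883 and 1886 genes, so the call counts do not show a weaker difference on high fat diet.

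**Figure D4:**
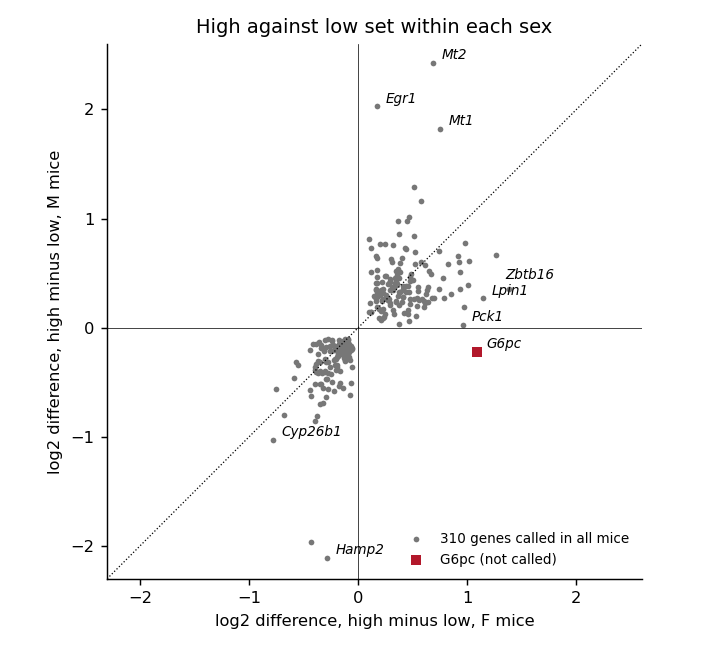
Log2 difference between high and low Igfbp1 sets in F mice (x axis) and M mice (y axis) for the 310 genes called in the pooled comparison, with G6pc, not called, as a square. Called genes lie in the same-sign fields by the making of the pooled comparison; G6pc has 1.09 in F mice.

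The middle of the Igfbp1 range, from mice that did not enter the comparison, gave the same contrast on a smaller Igfbp1 step. The upper against the lower middle set had no gene called by limma (0.0%), with 945 at an unadjusted p under 0.05. Of the 157 genes called higher between the outer sets, 108 (68.8%) had a positive difference in the middle too, beside 55.8% of all genes that were positive in the outer comparison. Of the 153 called lower, 59 (38.6%) were negative again, beside 35.2% of all negative genes. Across the 4 sets in order of Igfbp1, the mean of Irf2bp2 was 5.42, 5.44, 6.93 and 8.90, that of Angptl4 21.4, 22.7, 28.0 and 29.1, and that of Srebf1 95.1, 91.3, 87.0 and 75.8. G6pc had means of 61.8, 67.0, 82.4 and 88.0, and Pck1 of 266, 256, 329 and 385.4. Each of these sequences ended highest or lowest in the high set, and Irf2bp2 and Pck1 differed little between the 2 lower sets.

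**Figure D5:**
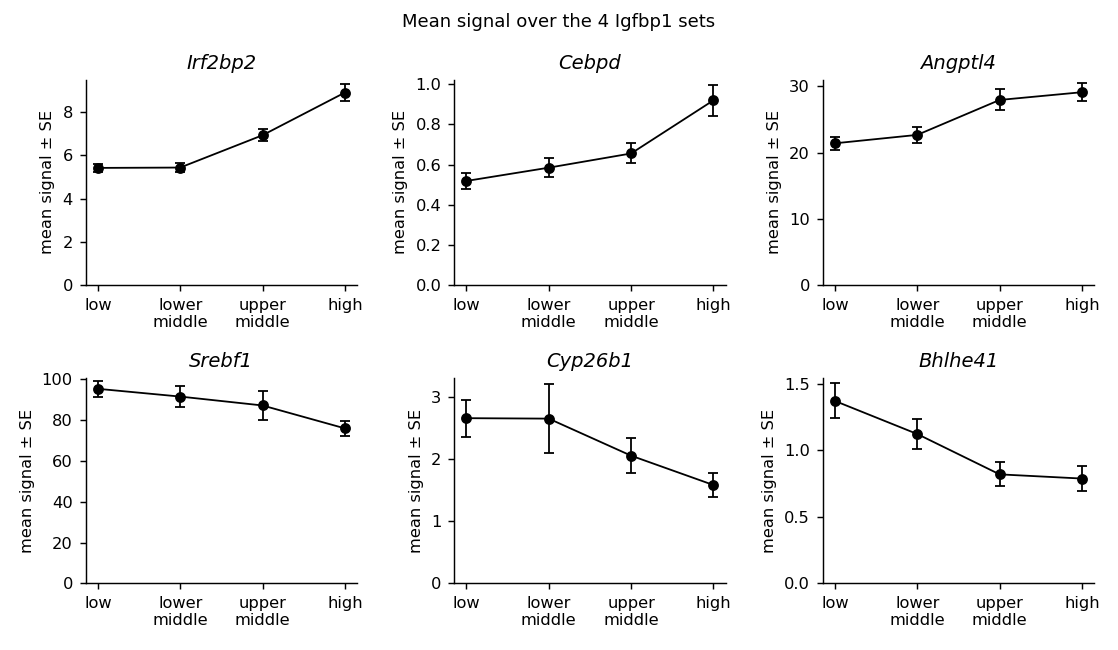
Mean signal ± SE of Irf2bp2, Cebpd, Angptl4, Srebf1, Cyp26b1 and Bhlhe41 in the 4 Igfbp1 sets, low to high. Irf2bp2 goes from 5.42 to 8.90 and Srebf1 from 95.1 to 75.8.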

How the data were processed

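Per the labels, liver RNA in RNAlater from 192 mice was sequenced as 2 technical repeats each. The authors deposited 1 table of 21454 genes with a column per mouse, whose values are an upper-quartile normalized signal. The submitters' processing notes name CASAVA 1.8.0 and the builds mm10 and GRCm38. No source used here gave the aligner, counter or annotation. Low values gave the worth of 1 read per mouse, but only 78.4% to 82.5% of values lay within 0.1 of a whole read, so no count test was run. Gene IDs were matched to GENCODE M21 (21022 matched, 432 not), and promoters are from RefSeq (GRCm38.p6).

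Genes above 0 in at least 46 mice with a mean of at least 0.06 (3.80 reads of the median mouse) were tested on log2(signal + 0.06) with limma 3.58.1 (R 4.3.3), with group and generation as covariates and Benjamini-Hochberg adjustment over 14693 genes. Igfbp1 was left out. Samples of a group are separate mice. Sums of markers were compared by permutation within groups, 100000 resamples, and coat colour by Fisher's exact test, both without generation.

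Named genes were the 15 largest called differences each way, over genes that have a symbol and average 10 pseudocounts or more in the higher set, up to 6 members per list with the smallest p, up to 6 per direction of each interaction, and all insulin-repressed genes. Further genes were added for comparison after their values were seen, as was the description of Irf2bp2 by its smallest p. The members, the gene lists and the tests were chosen with earlier results of these data known. Alternatives covered pseudocount, filter, scaling, covariates, cut points and subsets of mice.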

Additional observations from a re-analysis of the deposited data

Results flagged for a closer look

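The difference between high and low Igfbp1 sets differed between M and F mice for Creb1 by -0.36 ± 0.075 on the log2 scale (limma adjusted p 0.0416), with 0.16 in F and -0.19 in M mice. For Prdm15 it differed by -0.58 ± 0.11 (limma adjusted p 0.00664), with 0.30 in F and -0.21 in M mice. Both were singled out by the test of that difference over all genes. The count of such genes was 1 in place of 2 in 5 of the alternatives.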

How the results depend on the processing

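Counts below are genes called higher and lower in the high Igfbp1 set, beside 157 and 153. With no filter they were 107 and 89, with a clock covariate 234 and 238, with only the 34 mice farthest out 88 and 85, with ranking within group and generation 209 and 257, and with Igfbp1 as a continuous measure over all mice 331 and 436. Subsets with fewer mice gave 1 and 0 in G11L1 mice (limma; 1186 at an unadjusted p under 0.05), 39 and 46 in G11L2, 31 and 16 in chow, 3 and 1 in high fat, 55 and 15 in F, 2 and 4 in M, and 26 and 7 in agouti mice. At an unadjusted p under 0.05, limma gave 1883 genes in chow, 1886 in high fat, 1662 in F and 2249 in M mice. A test against a fold of at least 1.5 (limma) called 0 and 0, with 10 at an unadjusted p under 0.05. The count by sex was 1 in place of 2 with no filter, median-of-ratios, quantile scaling, no generation covariate or a depth covariate. The other alternatives stayed within 1.5 times, among them 129 and 130 without the 3 mice highest in Igfbp1. Leaving out mice carrying pancreas RNA kept 93 of the 94 mice and gave 139 and 119. An F mouse lacking Xist was in neither outer set, so leaving it out could not change 157 and 153. That setting is still counted among the alternatives given for single genes. None of the called named genes reversed. The numbers in the names of F and M mice mark no stated pairing, and the replicate block over shared numbers (consensus correlation 0.0300) gave 161 and 161, with all 310 genes still called. The agouti, Xist and 3-mouse settings were chosen after seeing the data. Depth limits the precision of low genes such as Fos and Gadd45b.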

Other observations

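All 22 acute phase genes, secreted by hepatocytes in inflammation, had a positive difference, with a median of 0.21. Of them 2 were called, beside 1.07% of all genes called higher: Il1rn, the interleukin-1 receptor antagonist (0.66, limma adjusted p 0.00914), and the haemoglobin scavenger Hp (0.45, 0.0266). The Kupffer cell and neutrophil sums were higher in the same mice, and their part in this was not tested. Between the upper and lower middle sets, 8 of the 22 acute phase genes were positive and the median was -0.02.

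Genes outside the naming rule, picked after their values were seen, had small p-values too: Ifngr1, the interferon gamma receptor (0.31 ± 0.046, limma adjusted p 7.40e-06), and Ip6k2, an inositol phosphate kinase (0.59 ± 0.087, 8.41e-06). TGTTTTG was in 4.23% of 142 promoter windows of genes called higher, 3.31% of 151 of genes called lower and 4.60% of those of genes tested. TGTTTAC was in none of the higher, 3.97% of the lower and 2.97% of all tested, and ACGTCA in 14.8%, 5.96% and 10.8%.

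Coat colour, which marks inherited founder alleles, was uneven: 2 of 47 high and 10 of 47 low mice were black (Fisher's exact test, two-sided p 0.0271, adjusted p 0.0552), and 39 against 29 were agouti (p 0.0368, adjusted p 0.0552). In agouti mice alone, 5 of 24 immediate early, 1 of 26 glucocorticoid and none of 18 insulin-repressed genes were called higher, beside 0.177% of all genes.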
